A study of Arabidopsis thaliana with 6 samples.

Results

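Overexpression of the microRNA miR172a was compared with the empty plasmid pML_Bart on 4 of the 6 arrays of the series. All plants were Arabidopsis thaliana of the Columbia accession, 7 days old and grown in short days, and total RNA came from their vegetative apices. The vector group (2 arrays) carried the plasmid without an insert, and the miR172a group (2 arrays) overexpressed miR172a in the Col-0 background. The arrays were chosen by their descriptions, and every probe set other than the AFFX controls was tested. The remaining 2 arrays, of plants overexpressing miR164b, entered the fit for its estimate of spread and are given beside the named genes. The sources used here do not give the promoter that drives the microRNA, the number of transgenic lines or any pooling of plants. They also do not say whether separate plants lie behind the 2 arrays of a group, so the p-values rest on a spread between samples that may be technical only.

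miR172 is a plant microRNA that pairs with the messages of AP2-type transcription factors, among them AP2, TOE1, TOE2, TOE3, SMZ and SNZ. These factors repress flowering, and miR172 lowers their output largely by blocking translation, although cleavage of the messages also occurs. Target proteins feed back on target transcription, so the level of a target message need not follow the level of its protein.

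The deposited values are scaled intensities in arbitrary units, and changes are differences of log2(intensity + 16) with their standard errors. Across probe sets the 2 vector arrays correlated at 0.991 and the 2 miR172a arrays at 0.9915, against 0.981 to 0.984 between the groups. The 25S rRNA control was at 355 on miR172a array 1, 3462 on miR172a array 2, 4070 and 4093 in vector and 443 and 529 in miR164b. It was thus high on both vector arrays and 1 miR172a array and low on the other 3, and its part in the results was not tested. Of 17 listed markers of the shoot apex, 4 were measured under a gene name (CLV3, LAS, FD and UFO), and their summed intensity was 188 to 204 in vector and 199 to 229 in miR172a. The leaf marker RCA read 3644 to 4111 in vector and 3965 to 4136 in miR172a. The 2 measured root markers summed to 58.4 and 28.1 in vector and to 32.6 and 32.2 in miR172a, and the 2 pollen markers to 55.5 to 57.6 and 47.8 to 74.1. No listed flower or seed marker was measured under a name. None of these markers passed the threshold. In apices taken whole, fewer cells of a type and less RNA per cell cannot be told apart.

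Between miR172a and vector, 735 of 22746 probe sets were higher (3.23%) and 601 lower (2.64%) at a Benjamini-Hochberg adjusted p under 0.05 in limma, or 5.87% of those tested. Most differences were small: 80.8% of the called probe sets changed by less than 1 on the log2 scale, and their median absolute change was 0.67. Changes of 2 or more were seen at 9 probe sets that rose and 15 that fell. Calls were rarest among the 20% dimmest probe sets (1.67%) and reached 8.22% in the 20% brightest. Counted by gene, 338 of 13355 named genes rose (2.53%) and 300 fell (2.25%), or 4.78% in all. Between miR172a and miR164b 5.64% of genes were called. The arrays of the 2 groups did not overlap at 45.6% of genes. The number of calls depended on every array: it was 166 and 225 without vector array 1 or 2, 162 and 111 without miR172a array 1 or 2, and 359 without either miR164b array. Of the genes and probe sets chosen by fixed rules that passed the threshold, 30 passed it under every alternative run and 76 lost it under at least 1. Not all of these are described below. Called genes added after their values were seen, such as Fes1B, COR47 and TUB1, are not in this count.

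**Figure D1:**
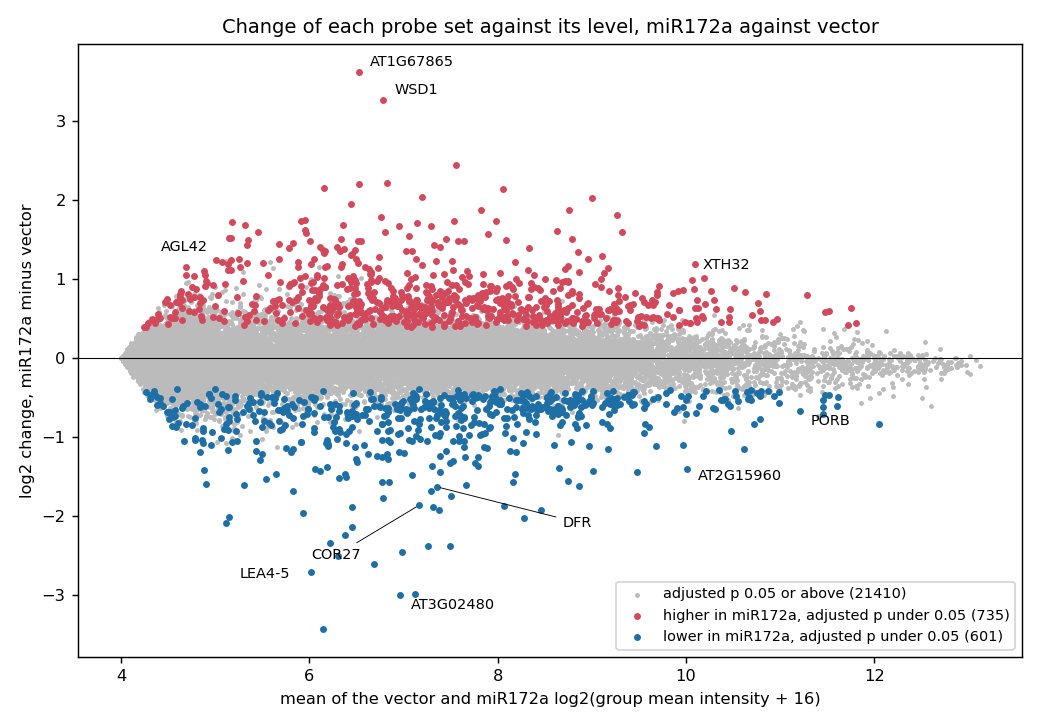
Change of each of the 22746 probe sets (vertical axis, log2, miR172a minus vector) against its mean level over the 2 groups (horizontal axis, log2(intensity + 16)). Red points are the 735 probe sets that were higher and blue points the 601 that were lower at an adjusted p under 0.05, and most of both lie within 1 of the zero line.

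Of the miR172 targets, SNZ and SMZ were measured under a gene name. SNZ, a repressor of flowering, read 125.9 and 107.4 on the vector arrays and 236.4 and 209.8 on the miR172a arrays. Its message was higher on both miR172a arrays than on either vector array, and it rose by 0.85 ± 0.11 (adjusted p = 0.017). The miR164b arrays, at 97.7 and 92.8, lay below both groups, and SNZ also differed between the microRNA lines (log2 1.102, adjusted p = 0.00726). SMZ, its close relative, read 162.9 and 157.9 in vector and 170.6 and 177.4 in miR172a. That difference of 0.11 ± 0.08 did not pass the threshold (adjusted p = 0.506). The call for SNZ was lost in 8 of 14 alternatives, where its adjusted p reached 0.0944.

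Of the 5 measured promoters of flowering and floral identity genes, 2 rose and 0 fell (40% called, beside 4.78% over all named genes). Their median change was 0.47, which is the value of FD, beside -0.0036 over all named genes. On all 6 arrays 2 of the 5 read below 16. Gene lists were chosen with earlier results known and were not tested as sets, so their shares and medians are descriptive. AGL42, a MADS-box relative of the floral integrator SOC1, read 5.9 and 6.1 in vector and 33.6 and 37.0 in miR172a. The vector arrays lay near the bottom of the scale and the miR172a arrays well above them, and AGL42 rose by 1.22 ± 0.12 (adjusted p = 0.00869). AGL24, a MADS-box activator of flowering, read 28.7 and 28.8 in vector and 62.3 and 55.5 in miR172a, a rise of 0.74 ± 0.13 (adjusted p = 0.039). Its miR164b arrays, at 60.3 and 43.8, reached into the miR172a range, and no difference between the microRNA lines was called (adjusted p = 0.583). FD, the bZIP partner of the florigen FT, read 57.9 and 53.5 in vector and 91.0 and 75.9 in miR172a. The groups were apart, but FD missed the threshold against vector (log2 0.47 ± 0.11, adjusted p = 0.0674) and passed it against miR164b (log2 0.67, adjusted p = 0.0245).

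ATC, a homologue of TFL1 that represses flowering, also rose. It read 4.6 and 3.0 in vector and 20.8 and 21.0 in miR172a, a change of 0.90 ± 0.09 (adjusted p = 0.00947). Both vector arrays and both miR164b arrays (1.7 and 3.1) lay under 5, where the added 16 compresses a change. The call for ATC was lost without either vector or either miR172a array. The other measured repressor, AGL18, differed by 0.17 (adjusted p = 0.408). In the MADS-box family as a whole, AGL42 and AGL24 were the called members among 42 measured (4.76%, beside 4.78% over all named genes). The median change was 0.03, and 21 of the 42 read below 16 on all 6 arrays. With any 1 array left out, 0 or 1 MADS-box gene was called, and AGL42 and AGL24 both lost their calls without either vector or either miR172a array. JAG, a zinc-finger factor that promotes growth of lateral organs, was the called gene among 13 regulators of boundaries, meristem and leaves (7.69% called). It fell by 0.71 ± 0.13 (adjusted p = 0.0396). It read 98.9 and 115.3 in vector and 51.6 and 67.0 in miR172a. Without any 1 array 0 of these 13 were called.

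**Figure D2:**
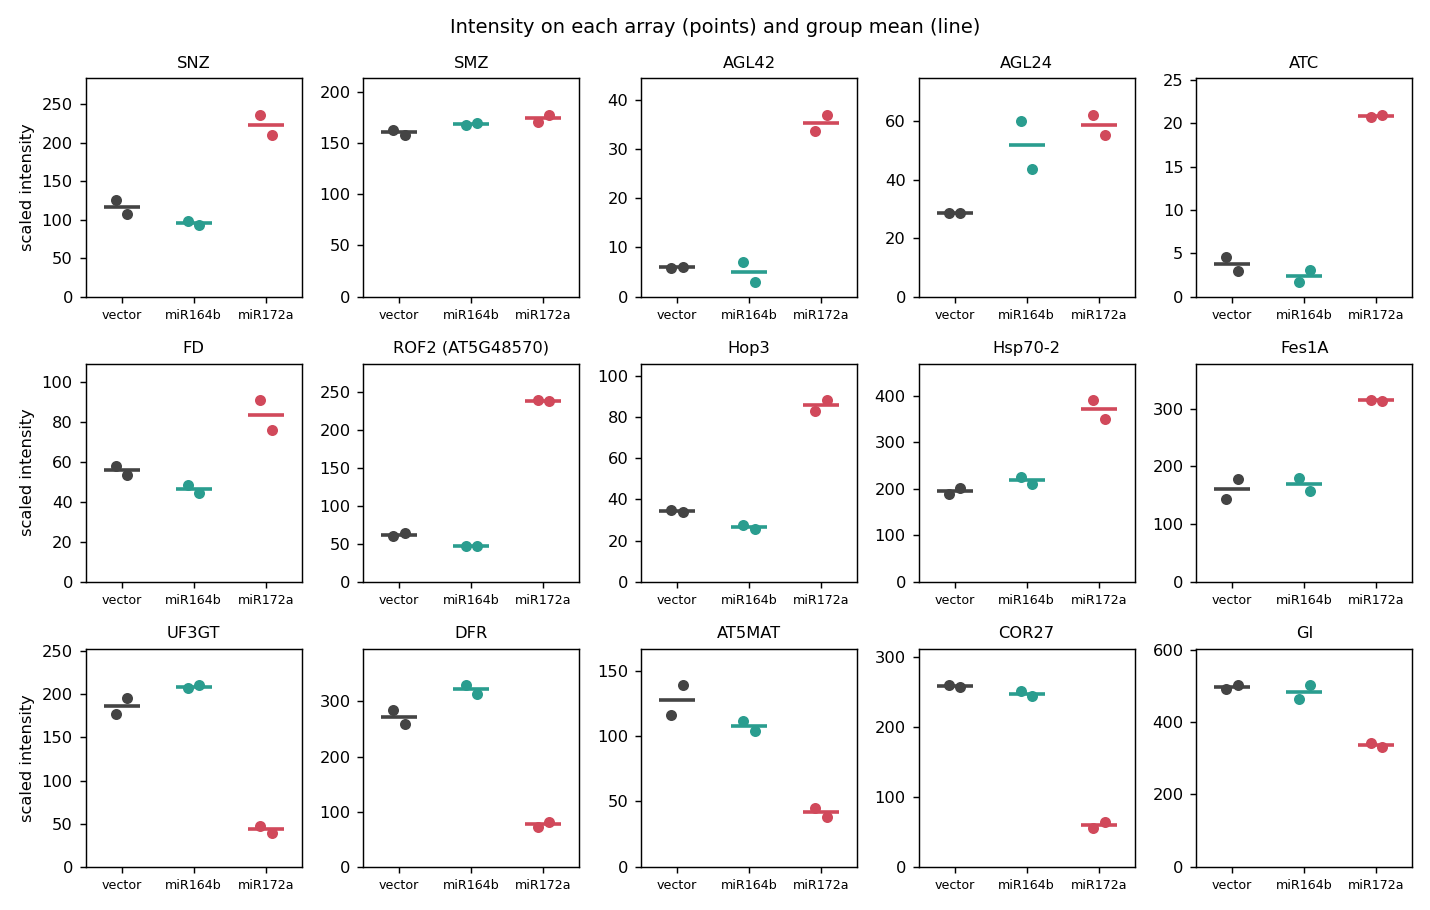
Scaled intensity (vertical axis, arbitrary units, from 0) of 15 genes on each array, with points for arrays and lines for group means of 2 arrays. The miR172a points of SNZ, AGL42, ATC and the 4 heat shock genes lie above both other groups, those of UF3GT, DFR, AT5MAT, COR27 and GI lie below both, and those of AGL24 overlap miR164b.

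The largest rise of a named gene was at AT1G67865, which read 7.9 and 12.6 in vector and 290.2 and 324.3 in miR172a. Its change was 3.63 ± 0.12 (adjusted p = 0.00181). The miR164b arrays, at 11.6 and 13.1, stayed with vector. AT1G67860, the named gene with the next largest rise after WSD1, read 23.9 and 12 in vector and 115.1 and 151.7 in miR172a and rose by 2.15 ± 0.23 (adjusted p = 0.0108). WSD1, a wax ester synthase that makes esters of the stem cuticle, read 22.8 and 16.2 in vector and 291.3 and 363.7 in miR172a. It rose by 3.27 ± 0.16 (adjusted p = 0.00205), with the miR164b arrays at 9.6 and 14.4. AT1G67865 and WSD1 passed under every alternative, and AT1G67860 lost its call with an offset of 1 and without either miR172a array.

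The other 17 of the 20 largest rises among named genes lay between 1.40 and 2.15. AT4G21650 rose by 2.15 ± 0.13, AT1G19450 by 1.87 ± 0.09 and AT3G45680 by 1.87 ± 0.11, and each passed under every alternative. AT5G22580 rose by 1.81 ± 0.14, from 310.2 and 312.6 in vector to 1002.1 and 1273.6 in miR172a, and held under every alternative. Its miR164b arrays lay between the groups, at 596.1 and 692.2. The miR164b mean was nearer to vector than to miR172a for 17 of these 20 genes. Over all 338 genes called higher it was nearer to vector for 246. A different order was seen at AT1G69730, where vector read 7.9 and 8.4, miR164b 34.4 and 31.3 and miR172a 46.3 and 58.8. AT1G69730 rose by 1.50 ± 0.11 (adjusted p = 0.00462), whereas the difference between the microRNA lines did not pass (adjusted p = 0.0646). The miR172a arrays differed most from each other at AT5G22460 (47.7 and 91.2) and AT1G04660 (33.2 and 58.1), and both calls were lost without any 1 array.

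Among the 20 largest falls of named genes the miR164b mean was nearer to vector for 12 and nearer to miR172a for 8. Over all 300 genes called lower it was nearer to vector for 207 and nearer to miR172a for 93. At some genes it lay between the groups. AT5G62210 read 587.7 and 631.8 in vector, 396.8 and 420.4 in the miR164b line and 143.4 and 133.0 in miR172a. AT4G34950 read 389.6 and 396.2 in vector and 55.7 and 71.0 in miR172a, a fall of 2.37 ± 0.11 on the log2 scale (adjusted p = 0.00197), while miR164b stood at 603.4 and 608.4. AT2G23910 read 158.6 and 170.4 in vector, 158.7 and 151.6 in the miR164b line and 22.6 and 21.6 in miR172a. On the miR172a arrays both were low, while the miR164b arrays lay above vector for AT4G34950 and near it for AT2G23910. AT4G33980 followed the same order, at 104.3 and 104.1 in vector, 124.3 and 122.1 in the miR164b line and 15.6 and 14.1 in miR172a. All 3 passed under every alternative.

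At other genes among these falls, both microRNA lines were low. AT3G02480 read 306.9 and 363.8 in vector, 30.8 and 33.0 in the miR164b line and 36.1 and 21.1 in miR172a. It fell by 2.99 ± 0.18 against vector (adjusted p = 0.0026), and the microRNA lines differed by -0.12 (adjusted p = 0.747). LEA4-5, a late embryogenesis abundant protein that protects cells during water loss, read 158.4 and 136.6 in vector, 10.5 and 4.3 in the miR164b line and 16.3 and 3.3 in miR172a. AT4G39675 read 61.1 and 50.4 in vector and at most 4.1 on the arrays of both microRNA lines. For such genes the design cannot show whether the vector plants or the plants of both microRNA lines carry the difference: the 2 cannot be told apart.

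**Figure D3:**
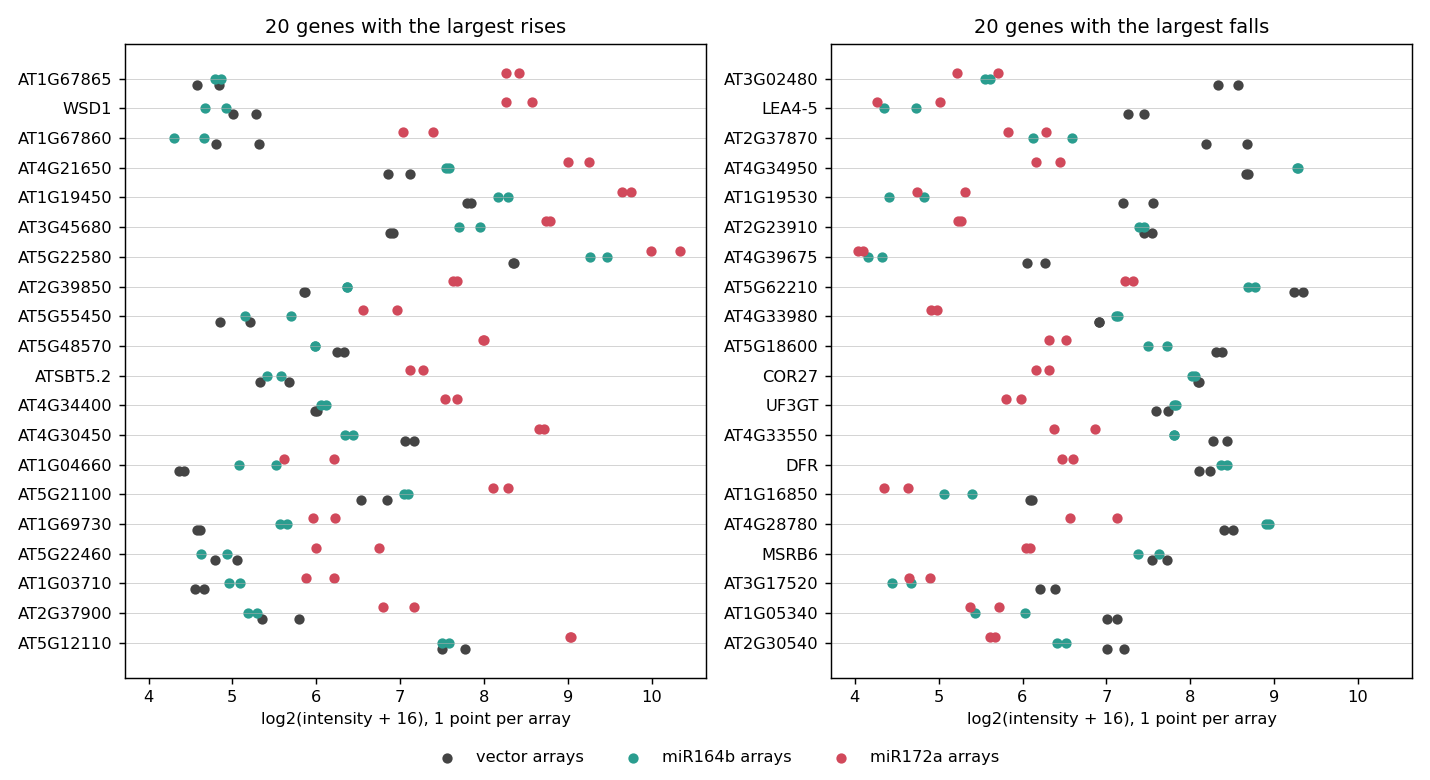
Levels on each array (horizontal axes, log2(intensity + 16)) of the 20 genes with the largest rises (left) and the 20 with the largest falls (right). The miR164b mean lies nearer to vector for 17 of the rises and 12 of the falls. Over all called genes it does so for 246 of 338 rises and 207 of 300 falls. The miR164b points lie beside miR172a for others such as AT3G02480, LEA4-5 and AT4G39675.

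Among the 15 measured genes of cold and dehydration response, 5 fell and 2 rose, with a median change of -0.35, and 3 to 5 were called with 1 array left out. The share called was 46.7%, beside 4.78% over all named genes. LTI30, a dehydrin, read 475.8 and 456.7 in vector and 150.7 and 167.1 in miR172a and fell by 1.46 ± 0.09 (adjusted p = 0.0026). Its miR164b arrays read 191.8 and 189.2, so vector was the high group. LEA4-5 fell by 2.71 ± 0.27 (adjusted p = 0.00928), and its call was lost without either vector array. COR47, another dehydrin, fell by 0.48 (adjusted p = 0.0321), from 1123.2 and 1188.5 to 817.7 and 825.4. HIS1-3, a linker histone induced by drought, read 363.2 and 353.9 in vector, 113.1 and 103.3 in the miR164b line and 166.8 and 191.1 in miR172a, and fell by 0.94 ± 0.10 (adjusted p = 0.0108). Against these, AT2G46140, annotated as LEA27, rose by 1.36 ± 0.08 (adjusted p = 0.0026), with 64.1 and 67.1 in vector and 197.7 and 189.5 in miR172a. XERICO, a RING protein that raises abscisic acid levels, rose by 0.69 (adjusted p = 0.0149). LTI30 and AT2G46140 passed under every alternative. COR15A (log2 -0.44, adjusted p = 0.11) and COR15B (log2 0.23, adjusted p = 0.244), a pair of chloroplast cold proteins, had differences of opposite sign that did not pass.

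COR27, a cold-regulated gene that also acts in the circadian clock, was low on both miR172a arrays only. It read 259.4 and 256.3 in vector, 250.4 and 243.1 in the miR164b line and 55.7 and 63.5 in miR172a, a fall of 1.86 ± 0.09 against vector (adjusted p = 0.00197). Against miR164b it fell by 1.80 (adjusted p = 0.0012), and its call against vector held under every alternative. GI, the evening clock gene GIGANTEA that acts upstream of CO and FT, read 490.2 and 502.4 in vector and 342.9 and 331.5 in miR172a. It fell by 0.54 ± 0.08 (adjusted p = 0.0283), but this call was lost in 9 of 14 alternatives. The sources used here do not give the time of day of harvest.

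Among 9 measured genes listed for flavonoid and anthocyanin synthesis 3 fell and 0 rose, with a median of -0.30, and 2 or 3 were called with 1 array left out. The share called was 33.3%, beside 4.78% over all named genes. One of the 9, CHI, is annotated as a putative chitinase and matched by its symbol. The median of the other 8, taken after the values were seen, was -0.24. DFR, the reductase that commits flavonoids to anthocyanin, read 284.0 and 258.6 in vector and 72.7 and 81.3 in miR172a and fell by 1.63 ± 0.10 (adjusted p = 0.0026). UF3GT, which adds xylose to anthocyanins, read 177.5 and 196.3 in vector and 47.3 and 39.7 in miR172a and fell by 1.77 ± 0.10 (adjusted p = 0.0026). AT5MAT, which adds the malonyl group, fell by 1.31 ± 0.12 (adjusted p = 0.00687), from 116.2 and 139.1 to 44.9 and 38.4. For all 3 the miR164b arrays stayed near or above vector, and all 3 also fell against miR164b (log2 -1.86, -1.92 and -1.10). DFR and UF3GT passed under every alternative. UGT78D2, the flavonoid 3-O-glucosyltransferase, differed by -0.39 (adjusted p = 0.14), CHIL by -0.09 and the flavonol rhamnosyltransferase UGT78D1 by 0.04.

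Heat shock proteins and co-chaperones fold client proteins or assist those that do. Of 7 listed and measured members 4 rose and 0 fell (57.1% called, beside 4.78% over all named genes), and their median change was 0.87. Fes1B and Fes1C, relatives of the listed Fes1A that the list did not hold, fell by 0.80 (adjusted p = 0.00907) and 0.58 (adjusted p = 0.0341). AT5G48570, annotated as the immunophilin ROF2, which interacts with HSP90, read 59.7 and 64.5 in vector, 47.4 and 47.1 in the miR164b line and 239.9 and 237.9 in miR172a. It rose by 1.71 ± 0.08 (adjusted p = 0.00197) and passed under every alternative. Hop3, which bridges HSP70 and HSP90, rose by 1.02 ± 0.08 (adjusted p = 0.00545), from 34.7 and 33.7 to 83.1 and 88.4. Hsp70-2 rose by 0.87 ± 0.10 (adjusted p = 0.0124) and Fes1A, a partner of HSP70 in heat tolerance, by 0.91 ± 0.12 (adjusted p = 0.0186). The 4 were also higher than in miR164b, by 2.01, 1.26, 0.72 and 0.84. Hop2 (log2 0.34, adjusted p = 0.151) and Hop1 (log2 0.00) were not called, and neither was the copper chaperone CCS. With 1 array left out 1 to 3 of the 7 were called.

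Genes of dividing cells were lower where they changed. Of 10 measured cell division genes 3 fell and 0 rose (30% called, beside 4.78% over all named genes), with a median of -0.36. KINESIN-12B, a motor of the phragmoplast that builds the new wall, read 167.0 and 178.2 in vector and 99.4 and 90.4 in miR172a and fell by 0.77 ± 0.09 (adjusted p = 0.0157). TOPII, a topoisomerase, fell by 0.59 ± 0.11 (adjusted p = 0.0436), and 3xHMG-box2, a protein of mitotic chromosomes, by 0.48 ± 0.09 (adjusted p = 0.044). The aurora kinases AUR1, AUR2 and AUR3 differed by -0.42, -0.30 and -0.45 without passing. Of 8 histone genes 3 fell (37.5% called), and the median was -0.28. They were the H2B genes HTB11 (log2 -0.48, adjusted p = 0.0423) and HTB1 (log2 -0.42, adjusted p = 0.0476) and the drought-induced HIS1-3. Against miR164b HTB11 and HTB1 were not called (adjusted p = 0.128 and 0.135). HIS1-3 was higher in miR172a than in miR164b (log2 0.65, adjusted p = 0.0222). Without any 1 array 0 of the cell division genes and 0 or 1 of the histone genes were called.

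Falls were called among chlorophyll synthesis genes and at 1 starch gene. Of 9 measured genes of chlorophyll and porphyrin synthesis 2 fell and 0 rose, with a median of -0.25. The share called was 22.2%, beside 4.78% over all named genes. PORB, the light-dependent protochlorophyllide oxidoreductase, read 3009.9 and 2915.9 in vector and 1950.9 and 1775.5 in miR172a and fell by 0.67 ± 0.09 (adjusted p = 0.0205). HEME1, a uroporphyrinogen decarboxylase, fell by 0.60 ± 0.08 (adjusted p = 0.017). DPE1, the disproportionating enzyme of starch breakdown, was the called gene among 4 of starch metabolism (25% called). It fell by 0.61 ± 0.08 (adjusted p = 0.0179). Among 14 nuclear genes of photosynthesis (14.3% called) the median was -0.04. CRR41, an assembly factor of the chloroplast NDH complex, fell by 0.88 ± 0.12 and the light-harvesting protein LHCB4.3 rose by 0.66 ± 0.12. Of 69 plastid-encoded genes limma called 0, with 16 at an unadjusted p under 0.05, a median of -0.21 and 7 called with an offset of 64. The calls for PORB, HEME1 and DPE1 were lost without any 1 array.

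Of 6 cytokinin genes 16.7% were called and of 3 gibberellin genes 33.3%, beside 4.78% over all named genes. RR16, a type-A response regulator that is induced by cytokinin and dampens its signal, was the called member of 6 cytokinin genes. It read 91.6 and 89.8 in vector, 77.7 and 74.6 in the miR164b line and 38.3 and 30.8 in miR172a and fell by 1.08 ± 0.10 (adjusted p = 0.00803). The call was lost without vector array 1 or 2 or miR172a array 2. GID1B, a gibberellin receptor, rose by 0.65 ± 0.08 (adjusted p = 0.0174), from 72.9 and 74.1 to 129.0 and 119.6, and without any 1 array 0 of the 3 gibberellin genes were called. The receptors GID1A (log2 -0.10) and GID1C (log2 -0.30) were not called. Of 16 auxin genes limma called 0, with 3 at an unadjusted p under 0.05. The largest differences in the list were GH3.9 (log2 0.49, adjusted p = 0.0838) and IAA31 (log2 0.45, adjusted p = 0.262). Of 5 jasmonate genes limma likewise called 0, with 2 at an unadjusted p under 0.05. The measured brassinosteroid genes (BRH1, log2 0.38, and BRL1, log2 0.25) and ethylene genes (TINY2, log2 0.55, and EIN3, log2 0.09) did not pass.

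Cell wall genes that changed rose more often than they fell. Expansins loosen the wall and xyloglucan enzymes cut and rejoin its tethers. Of 29 measured members 3 rose and 2 fell (17.2% called, beside 4.78% over all named genes), with a median of 0.10. EXPA4 read 304.9 and 300.9 in vector, 434.9 and 455.8 in the miR164b line and 671.3 and 658.3 in miR172a and rose by 1.09 ± 0.08 (adjusted p = 0.00389). XTH32 read 746.9 and 740.8 in vector, 1014.9 and 1045.0 in the miR164b line and 1532.2 and 1460.4 in miR172a and rose by 0.99 ± 0.08 (adjusted p = 0.00545). In both, miR164b lay between the other groups, both also rose against miR164b, and both passed under every alternative. EXPA15 rose by 0.62 ± 0.08, whereas EXPA9 fell by 0.52 ± 0.09 and EXLB1 by 0.65 (adjusted p = 0.0446).

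Of 33 genes of cellulose and other wall polysaccharides 4 rose and 0 fell (12.1% called, beside 4.78% over all named genes), with a median of 0.15. All 4 were of the TRICHOME BIREFRINGENCE-LIKE family, known for acetylation of wall polymers. These were TBL36 (log2 0.83 ± 0.11), TBL43 (log2 0.67 ± 0.09), TBL28 (log2 0.66 ± 0.11) and AT2G31110, annotated as TBL40 (log2 0.50 ± 0.10). None of the 33 was called in limma with any 1 array left out. PMEPCRF, a pectin methylesterase, rose by 0.97 ± 0.09 (adjusted p = 0.00915), from 122.6 and 134.1 to 271.0 and 261.3. The second called gene of the 6 in the pectin list, PMEAMT (log2 0.51), is a phosphoethanolamine methyltransferase of phospholipid synthesis that matched by its symbol. Prx37 was the called peroxidase of 7 (14.3% called), at 7.0 and 8.9 in vector and 19.8 and 17.3 in miR172a. Its call was lost in 12 of 13 alternatives.

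Of 5 genes listed for the cuticle 2 rose and 1 fell (60% called, beside 4.78% over all named genes). WSD1, described above, was the member that kept its call without each array. AT5G61590, annotated as DEWAX, a repressor of wax synthesis, read 581.5 and 566.2 in vector, 615.3 and 635.9 in the miR164b line and 345.3 and 354.5 in miR172a. It fell by 0.69 ± 0.08 against vector (adjusted p = 0.013) and by 0.81 against miR164b (adjusted p = 0.00683), and without any 1 array the call against vector was lost. FDH, which rose by 0.48, matched the list by symbol only, as here it stands for formate dehydrogenase.

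**Figure D4:**
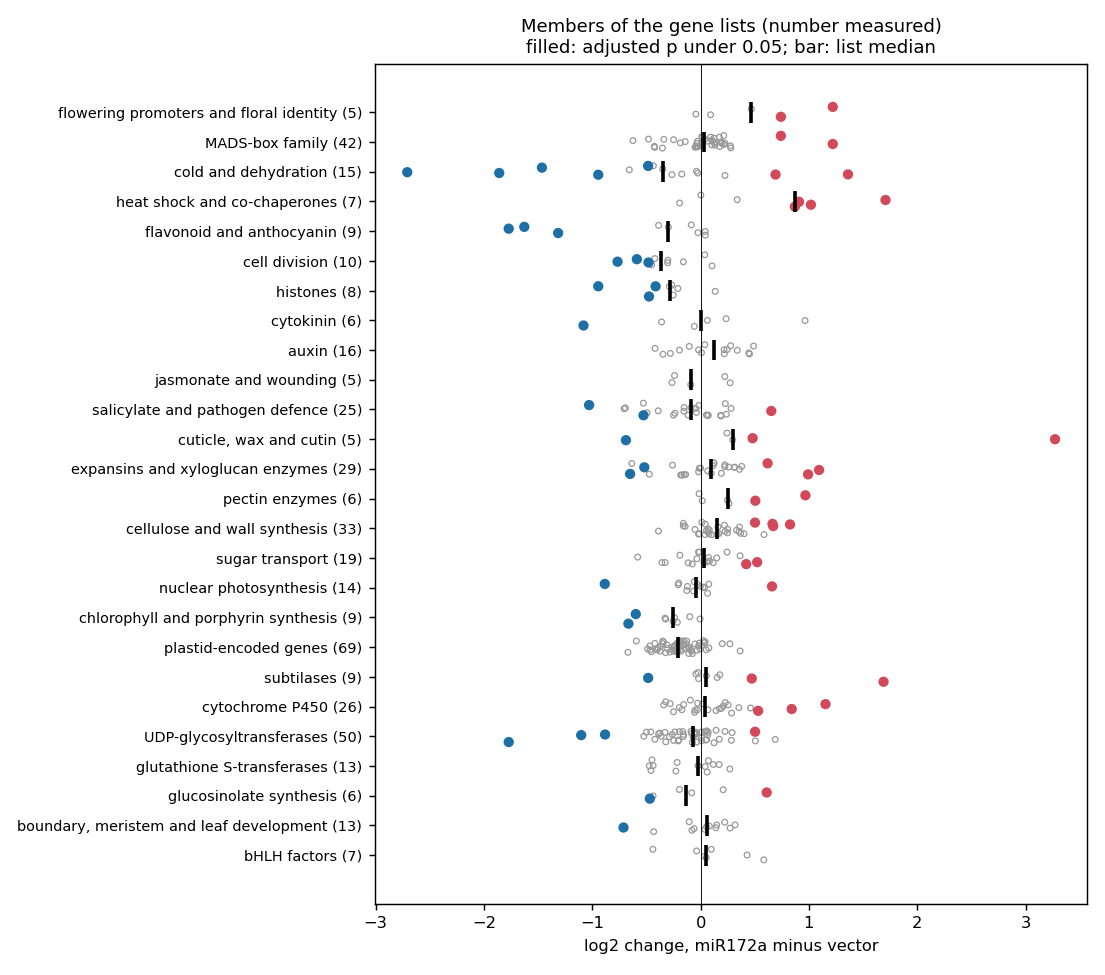
Change of every measured member of 26 gene lists (horizontal axis, log2, miR172a minus vector), with filled points past an adjusted p of 0.05, open points for the rest and a bar at each list's median. The 4 filled heat shock points lie to the right, Hop1 and CCS lie at or left of zero, and cold, anthocyanin, cell division and histone members mostly to the left.

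In the lists of sugar transport, P450, glycosyltransferase, glutathione S-transferase and subtilase genes, the medians ran from -0.07 to 0.05. SWEET1 (log2 0.42 ± 0.08) and SWEET2 (log2 0.52 ± 0.10), which move glucose and other sugars across membranes, rose among 19 sugar transport genes. The share called was 10.5%, beside 4.78% over all named genes. SAG29, a sugar carrier of the same family listed with senescence genes, fell by 0.74 ± 0.12. Among 26 cytochrome P450 genes (11.5% called) CYP71B22 (log2 1.15), CYP71B37 (log2 0.84) and CYP71B6 (log2 0.53) rose. CYP71B22 read 6.4 and 12.9 in vector, near the bottom of the scale. The calls for SWEET1, SWEET2, SAG29, CYP71B22, CYP71B37 and CYP71B6 were lost with an offset of 1 and with the vector and miR172a arrays alone. Among 50 UDP-glycosyltransferases (8% called) UGT87A2 rose by 0.50, and UGT85A2, UGT85A5 and UF3GT fell by 0.88, 1.102 and 1.77. The calls for UGT87A2 and UGT85A5 were lost under the same settings. UGT87A2 is known for a role in flowering time. Of 13 glutathione S-transferases limma called 0, with 3 at an unadjusted p under 0.05, and likewise 0 of 7 bHLH factors (3 at that p) and 0 of 3 small RNA pathway genes (1 at that p). AQI, the only match to the aquaporin list, is annotated as an aquaporin interactor and did not pass. NAC014 and NRT2.5, the only matches to the lists of NAC factors and of nitrate, peptide and amino acid transport, did not pass either. GTR1, given below and annotated in the NRT1/PTR family, stood in the glucosinolate list instead. The seed genes OLEO3 and PAP85 did not pass. The subtilase ATSBT5.2 rose by 1.69 ± 0.14 (adjusted p = 0.00615), from 24.3 and 35.2 to 138.5 and 122.9. Its call was lost without either miR172a array. Of the other 8 genes in the subtilase list (9 genes, 33.3% called) SBT3.12 rose by 0.47 and SBT4.12 fell by 0.48. Both of these calls were lost with an offset of 1 and with the vector and miR172a arrays alone, and that of SBT4.12 in 12 of 13 alternatives. These lists matched symbols and annotated names, so a gene with only a locus or clone name could not enter them. AT4G21650, AT1G19450 and AT3G45680, among the largest rises above, had no other name here.

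A glucosinolate gene held the largest difference between the microRNA lines among the genes named here. BCAT4, which starts methionine chain elongation for these defence compounds, read 39.6 and 34.1 in vector, 748.3 and 780.4 in the miR164b line and 21.8 and 22.5 in miR172a. It fell by 0.47 ± 0.09 against vector (adjusted p = 0.0447) and by 4.35 against miR164b (adjusted p = 0.000132). GTR1, a glucosinolate transporter, rose by 0.61 ± 0.08 (adjusted p = 0.0197). BCAT4 and GTR1 were the called genes among 6 in the glucosinolate list (33.3% called). Both calls against vector were lost without any 1 array. Of 25 defence genes 12% were called, beside 4.78% over all named genes. The ubiquitin ligases PUB19 (log2 -1.03) and PUB26 (log2 0.65) changed in opposite directions, and the third call, PDF1B (log2 -0.53), is a peptide deformylase matched by its symbol.

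Among genes with a mean intensity of 1000 or more, AT4G24780 rose by 1.02 ± 0.08, from 781.2 and 826.0 to 1638.4 and 1644.1. AT2G15960 showed the largest fall of these bright genes, by 1.40 ± 0.09, from 1656.8 and 1658.7 to 589.9 and 645.0, with miR164b at 1203.0 and 1115.9, and passed under every alternative. ECS1 rose by 0.85 ± 0.09 against vector, but its miR164b arrays (1713.4 and 1854.2) were as bright as those of miR172a (1586.5 and 1698.4). Of the called probe sets 51.9% had no single gene name here. Of these, 248197_at rose by 2.44 and 249012_at by 2.21, while 247718_at fell by 3.43 and 262128_at fell by 2.99. Both probe sets that fell were also low on the miR164b arrays: 247718_at read 209.4 and 218.3 in vector, 8.5 and 3.0 in the miR164b line and 1.9 and 9.5 in miR172a.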

How the data were processed

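The authors deposited 1 linear intensity per probe set and array for 22810 probe sets. The sources used here name no software or summary method. Each array's mean without the lowest and highest 2% of values was 200.0, so depth is not defined and the number of arrays limits precision. The deposited intensities were transformed to log2(intensity + 16), and 64 AFFX controls were left out. limma 3.58.1 in R 4.3.3 fitted 1 mean per group to all 6 arrays (lmFit, eBayes), with two-sided tests, Benjamini-Hochberg adjustment over 22746 probe sets and a threshold of 0.05. There were 3 residual and 2.69 prior degrees of freedom. Groups came from the sample descriptions.

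Gene names came from the platform annotation, updated through TAIR10.1. Of the probe sets 13513 had 1 gene (13436 matched), 503 several and 8730 none. The brightest probe set stood for a gene. The members and 47 gene lists were chosen with earlier results of these data known. Of the lists 40 had a measured gene, 476 genes in all, of which 34 rose and 30 fell. Named were the miR172 targets, the 20 largest rises and falls whose arrays do not overlap, up to 4 called members per list (or 2 uncalled), 5 bright genes each way and 2 unnamed probe sets each way. CCS, CHI, Fes1B, Fes1C, Hop1, Hop2, FD, AGL18, the GID1 receptors, the aurora kinases, COR15A, COR15B, COR47, XERICO, CHIL, EXLB1 and the UGT78D genes were added after their values were seen. Promoter motifs were not analysed here. On simulated arrays (10 draws, 200 of 22746 probe sets changed), 57.2% of changes of 1 and 94.0% of changes of 2 were recovered, 1.15% of changes of 0.5, and 6.36% of calls were false. Alternatives covered the offset, scaling, a filter on dim probe sets, arrays in the fit, the spread model, the replicate block and each array left out. Plots used matplotlib 3.10.9 under Python 3.11.15.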

Additional observations from a re-analysis of the deposited data

How the results depend on the processing

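The count of called probe sets (1336) moved to 406 with an offset of 1, 2241 with an offset of 64, 2419 without the 40% dimmest probe sets, 2263 with an intensity trend, 359 with the vector and miR172a arrays alone and 2412 at an adjusted p under 0.1. It was 1299 after median centring and 1396 after quantile normalization. With 1 array left out it ranged from 111 to 359. A lone array was assumed to vary like the other groups, and leaving out a miR164b array repeats the fit of the 4 arrays. The replicate numbers did not pair the samples: deviations of same-numbered arrays correlated at 0.10 between vector and miR172a, 0.08 between the microRNA lines and -0.01 between vector and miR164b. With the replicate block 795 probe sets were called. Of the named genes past the threshold, 53 passed with an offset of 1, 58 with the 4 arrays alone, 83 with the replicate block and 36 to 58 with 1 array left out. Of the 74 called against miR164b, 21 to 64 passed with 1 array left out and 65 with the replicate block. Over 1765 values of the named genes, 1263 kept their side of the threshold and direction, 492 lost and 10 gained a call, and 0 reversed. Of the 76 named calls lost under some alternative, 18 were lost only without an array. Changes near the bottom of the scale depended most on the offset: AGL42 rose by 2.37 with an offset of 1 and by 0.50 with 64.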

Other observations

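Some gene families held members that moved in opposite directions in miR172a, and these genes were chosen after their values were seen. Fes1A rose by 0.91, while its relatives Fes1B and Fes1C, with the same name stem, fell by 0.80 and 0.58. Fes1B read 268.5 and 268.8 in vector, 286.0 and 277.7 in the miR164b line and 145.1 and 149.4 in miR172a, so the miR172a arrays stood apart from the other 4. MSRB6, a methionine sulfoxide reductase, fell by 1.57 and MSRB9 rose by 0.93. MSRB6 read 170.4 and 195.7 in vector and 51.9 and 49.8 in miR172a. MSRB9 read 95.3 and 139.7 in vector, 196.4 and 184.0 in the miR164b line and 222.7 and 246.8 in miR172a, so both microRNA lines were above vector. JAL33, a jacalin-related lectin, fell by 1.39, from 641.2 and 635.0 to 243.4 and 222.6, with miR164b at 747.2 and 779.9.

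Genes of the cytoskeleton, also chosen after their values were seen, included TUB1, a beta-tubulin, which rose by 1.17, from 258.3 and 284.3 to 594.4 and 664.3. Its miR164b arrays, at 579.9 and 606.1, were close to miR172a. WLIM1 and WLIM2a, which bundle actin, fell by 0.58 and 0.50. For both the miR164b arrays lay above vector, at 921.3 and 1045.8 for WLIM1 and 794.4 and 800.4 for WLIM2a. The wall glycosidases GH9C2 (log2 0.92, adjusted p = 0.00928) and GH9B8 (from 199.6 and 179.9 to 350.8 and 447.3, adjusted p = 0.0209) rose, and both were also bright in miR164b, GH9C2 at 1056.5 and 1088.7 beside 587.9 and 604.3 in vector. The bZIP factor bZIP58 read 12.1 and 15.9 in vector, 27.4 and 26 in the miR164b line and 51.3 and 55.3 in miR172a and rose by 1.21 (adjusted p = 0.00545).

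A change from near the bottom of the scale was rare. On both vector arrays 3 probe sets read below 16 while both miR172a arrays read 50 or more (AT1G67865, bZIP58 and 253488_at), and 6 showed the reverse. Of those 6, AT4G33980 kept its level in miR164b, and AT4G39675, AT1G16850, AT3G17520, 247333_at and 247718_at were lower in miR164b than in vector. Calls were spread over the 5 nuclear chromosomes at 4.67% to 5.03% of genes.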
